A study of Mus musculus with 7 samples.

Results

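The genes described here are the machinery of DNA replication and of mitosis, measured in blood progenitors of the mouse fetal liver with and without Brd9. Brd9 is a bromodomain protein that belongs to non-canonical BAF, one of the complexes that remodel chromatin. The members were chosen by name as 41 gene symbols, and all 41 are rows of the deposited count table of 35976 symbols. They form an S phase set of 21 genes, which copy DNA or are switched on for it, and an M phase set of 20 genes, which condense, attach and separate chromosomes. All 41 passed the filter on low counts that left 14679 genes for testing. Levels are given as CPM, the count scaled to the size of its library, and log2 fold changes are knockout over control. A gene was called where the p of edgeR's quasi-likelihood test, adjusted over all tested genes by the Benjamini-Hochberg method, was under 0.05.

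Lineage-negative cells were taken from E14.5 fetal liver of C57BL/6 mice by magnetic selection, which removes cells that carry markers of mature blood lineages. All embryos were labelled CD45.2(+) and carried Brd9 alleles flanked by loxP sites (fl/fl). The 3 control libraries were Brd9fl/fl without a recombinase, and the 4 knockout libraries, titled test by the submitters, were Vav1-iCre Brd9fl/fl. Vav1-iCre is a Cre recombinase driven by a promoter active in blood cells, so other cells of the liver may keep Brd9. Brd9 was not measured by cell type. Every knockout and no control carried the recombinase, so its own effect cannot be told apart from that of Brd9 loss. The labels do not say whether a library is 1 embryo or a pool of embryos, and a p-value here reflects no more than the spread among the 7 libraries, some of which may be technical.

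A cell that prepares to divide loads the MCM2-7 helicase onto origins with the help of Cdc6 and Cdt1. Cyclin E with its kinase, and then Cdc45 and the GINS complex, turn the loaded helicase into a moving fork. In mitosis cyclin B with Cdk1 drives chromosome condensation and spindle assembly, and the anaphase-promoting complex with Cdc20 ends it by destroying cyclin B. Transcripts of the replication genes are induced at the entry into S phase by E2F factors. Those of the mitotic genes peak in G2 and M under the MuvB, B-Myb and FoxM1 machinery, which reads the cell cycle homology region (CHR), often beside CCAAT boxes bound by NF-Y. Fetal liver progenitors divide rapidly, and many of these transcripts are among the abundant mRNAs of such cells.

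The 2 sets carry different promoter letters. RefSeq promoters (GRCm38.p6, 250 bases before to 50 after the start) were found for 33 members, 17 of the S phase set and 16 of the M phase set. A CHR-type match, TTTGAA on either strand, was present in 12 of the 16 M phase genes and in 2 of the 17 S phase genes. Over all 32851 promoters of the same length, 17.9% held it, and of those of tested genes 12.6%. An E2F-type match was present in 10 of the 17 S phase genes and 4 of the 16 M phase genes, against 9.57% of all promoters and 15.5% of those of tested genes. The E2F letters were searched on both strands in 4 forms. These were TTCCCGC or TTGGCGC or TTCGCGC or TTGCCGC. The CCAAT box was found in 12 of the 17 and 14 of the 16 genes, against 37.4% of all promoters and 37.5% of those of tested genes. An E2F match that ends in CCAA can share those bases with a CCAAT box, as in the promoter of Ccnb1. All 12 M phase genes with a CHR-type match also held CCAAT. Members were counted by gene, with a match in any promoter of the gene, while the background shares are per promoter. By gene, 1618 of 10876 tested genes held a CHR-type match, 2006 an E2F-type match and 4651 a CCAAT box. These matches are letters in a window, not measured binding sites.

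The stretches that follow give the last 150 bases before the annotated start, 5′ to 3′ on the gene's strand, with matches to any of the 3 elements in capitals. Mcm6 and Pola1 are shown as S phase promoters with several E2F-type matches. Cdc20, Cdk1 and Kif11 are shown as M phase promoters with a CHR-type match near the start. No match to these letters was recorded for Ccne1, the member that differed most between the groups, and its promoter is not shown. Promoters were found for only 17 of the 21 S phase genes, and whether Ccne1 was among them was not recorded. The lack of a match may therefore mean only that no sequence was searched. That does not say whether E2F factors bind there.
Mcm6 (chr1:128359706-128359855, minus strand): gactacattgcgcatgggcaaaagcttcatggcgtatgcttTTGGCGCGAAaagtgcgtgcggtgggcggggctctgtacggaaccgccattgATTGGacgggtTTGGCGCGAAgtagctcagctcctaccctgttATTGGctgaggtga
Pola1 (chrX:93632156-93632305, minus strand): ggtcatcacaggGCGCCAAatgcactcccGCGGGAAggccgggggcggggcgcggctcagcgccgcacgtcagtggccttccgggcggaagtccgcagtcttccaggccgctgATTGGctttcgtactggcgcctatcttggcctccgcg
Cdc20 (chr4:118437344-118437493, minus strand): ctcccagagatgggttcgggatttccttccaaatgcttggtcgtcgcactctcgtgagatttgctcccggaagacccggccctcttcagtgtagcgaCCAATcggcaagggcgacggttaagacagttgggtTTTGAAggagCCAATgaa
Cdk1 (chr10:69352913-69353062, minus strand): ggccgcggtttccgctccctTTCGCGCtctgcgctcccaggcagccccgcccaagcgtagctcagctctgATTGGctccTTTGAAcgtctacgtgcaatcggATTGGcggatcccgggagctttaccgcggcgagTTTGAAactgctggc
Kif11 (chr19:37376232-37376381, plus strand): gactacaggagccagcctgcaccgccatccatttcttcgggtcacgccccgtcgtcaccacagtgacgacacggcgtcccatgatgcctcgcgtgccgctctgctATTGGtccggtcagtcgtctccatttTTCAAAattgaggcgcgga

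Brd9 checked the labels. Its level was 30.6, 32.2 and 36.5 CPM in the controls, against 8.57, 11.9, 13.2 and 12.2 CPM in the knockouts, and the groups did not overlap. The knockouts held 34.7% of the control mean (log2 fold change -1.53, SE 0.15; adjusted p = 0.0037 by edgeR; exact permutation test over 35 arrangements, two-sided, p = 0.0286, the smallest it can give). Library totals ran from 18748885 to 23571878 counts. As background, 82 genes, or 0.559% of those tested, were called at an adjusted p under 0.05, 80 lower (0.545%) and 2 higher (0.0136%). Markers of stem and progenitor cells were present in every library, summing to 916 to 1249 CPM over 12 genes in control libraries against 711 to 951 CPM in knockout libraries. Hepatocyte markers summed to 10082 to 17714 CPM over 10 genes in control libraries against 12813 to 22766 CPM in knockout libraries. No marker of the 6 cell type lists found in the table was at 0 in all libraries. Neutrophil markers summed to 4878 to 8662 CPM over 11 genes in control libraries against 1596 to 3632 CPM in knockout libraries, with 6 called lower. Macrophage markers, 11 genes, summed to 229 to 308 CPM in control libraries against 89.2 to 168 CPM in knockout libraries. These sums did not overlap either, but 0 of the 10 macrophage markers tested were called. In bulk libraries of this kind, fewer cells of a type and less RNA per cell cannot be told apart.

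No member of either set was called as different between the genotypes by edgeR's quasi-likelihood test. At an adjusted p under 0.05, 0 of 41 members were called, beside 0.559% of all tested genes (0 lower, beside 0.545%, and 0 higher, beside 0.0136%). At so low a background share, this count does not set the members apart from other genes. At an unadjusted p under 0.05 there was 1 member, Ccne1, against 10.9% of tested genes. DESeq2 called 1 of 41 (Ccne1; background 2.68%) and limma-voom 0 (background 0.504%). A fit with the replicate number as a block called 1 of 41 (Ccne1; background 0.824%). By the authors' deposited table, 0 of the 41 had an adjusted p under 0.05, against 2.19% of the genes that have one there. Only Ccne1 had no overlap between control and knockout libraries, 1 of 41, while 11.2% of all tested genes had none.

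The measurement was precise enough to bound most of these genes. The 95% interval of the fold change lay inside 1.5-fold in either direction for 40 of 41 members, and for 57.2% of tested genes. That share was not matched on level. Some tested genes had a mean under 1 CPM, while no member was below 22.1 CPM in any library. Over the 40 members other than Ccne1, log2 fold changes ran from -0.18 for Cenpf to 0.14 for Slbp, and the widest bound of any interval was 0.45, a 1.36-fold change. In 33 of 41 members the difference of the group means was smaller than the pooled SD between libraries of a group, against 65.2% of tested genes. A count of positive signs gave 17 of 21 in the S phase set and 12 of 20 in the M phase set, beside 52.4% of tested genes. The signs of the S phase genes are not independent of each other, because these genes deviate together from library to library, as described further on.

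**Figure D1:**
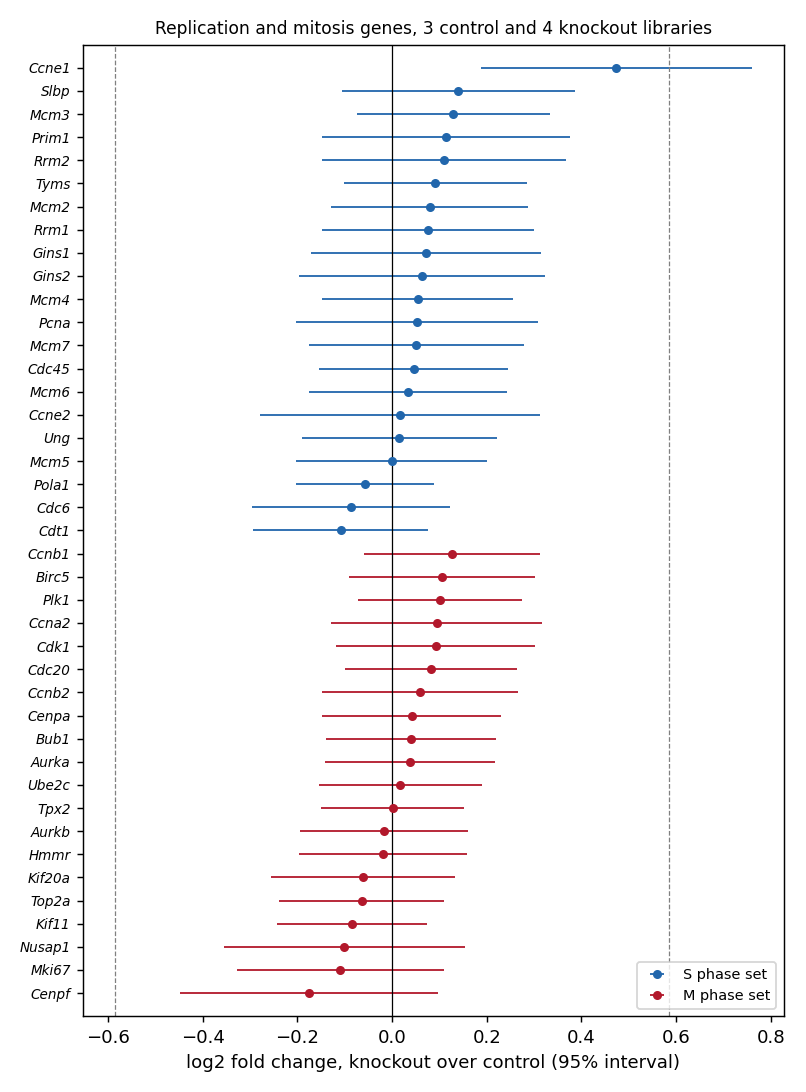
Log2 fold change of knockout over control (x axis) for the 21 S phase genes and the 20 M phase genes, ordered by value within each set. Points are edgeR estimates, bars are 95% intervals, and dashed lines mark 1.5-fold. Only the interval of Ccne1 excludes 0 and only that interval passes a dashed line.

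The MCM2-7 helicase, the ring that unwinds DNA at the fork, was among the most abundant groups. Mcm5 was measured at 516, 454 and 501 CPM in the controls, against 523, 487, 508 and 442 CPM in the knockouts. Mcm6 was measured at 614, 556 and 607 CPM in the controls, against 585, 616, 675 and 549 CPM in the knockouts. The groups overlapped for both, with knockout 4 lowest. This gave Mcm5 a log2 fold change of -0.00079 (SE 0.09, 95% interval -0.20 to 0.20, edgeR adjusted p = 0.999). For Mcm6 the log2 fold change was 0.033 (SE 0.093, 95% interval -0.18 to 0.24, edgeR adjusted p = 0.924). Each of these intervals spans 0. Mcm3 stood at 479, 423 and 453 CPM in the controls, against 535, 494, 504 and 443 CPM in the knockouts, and its highest control lay above its lowest knockout. Mcm3 had a log2 fold change of 0.13 (SE 0.091, 95% interval -0.074 to 0.33, edgeR adjusted p = 0.660). Mcm2 had 481 ± 36 CPM in controls against 509 ± 38 CPM in knockouts (mean ± SD over 3 and 4 libraries, as in all such pairs). Mcm4 had 334 ± 24 CPM in controls against 347 ± 25 CPM in knockouts, and Mcm7 had 529 ± 42 CPM in controls against 548 ± 53 CPM in knockouts. The 6 log2 fold changes of the ring lay between -0.00079 and 0.13. Its mean deviation was lowest in control 2 (-0.14 on the log2 scale) and knockout 4 (-0.12) and highest in knockout 3 (0.11).

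Loading and activation factors stood on both sides of 0. Cdt1, which brings the helicase to the origin, was measured at 191, 162 and 187 CPM in the controls, against 170.0, 165, 176 and 157 CPM in the knockouts. The 2 highest values were controls, and control 2 lay below 3 of the 4 knockouts. This gave Cdt1 a log2 fold change of -0.11 (SE 0.082, 95% interval -0.29 to 0.076, edgeR adjusted p = 0.684). Cdc6, its partner in loading, had 148 ± 19 CPM in controls against 139.8 ± 5.8 CPM in knockouts, again with control 1 and control 3 highest and control 2 lowest. Cdc45, Gins1 and Gins2, which join the helicase at the fork, had log2 fold changes of 0.046, 0.072 and 0.063. Of the exonic bases of Gins2, 67.3% are also covered by exons of Gse1 on the opposite strand in GENCODE M21. The strand setting of the counting is not given in the sources used here, so the level of Gins2 is uncertain.

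Polymerase and nucleotide supply genes also overlapped between the groups. Prim1, the small primase subunit that starts each new strand, was measured at 90.9, 78.9 and 98.9 CPM in the controls, against 91.8, 90.1, 117 and 89.2 CPM in the knockouts. Knockout 3 stood apart as the highest, and the other 3 knockouts lay within the control range. For Prim1 the log2 fold change was 0.11 (SE 0.12, 95% interval -0.15 to 0.38, edgeR adjusted p = 0.761). Pola1, the catalytic subunit of the same polymerase alpha-primase complex, differed less between libraries, with 133 ± 6.2 CPM in controls against 128 ± 3.1 CPM in knockouts. Pcna, the sliding clamp, had the highest level per length of the S phase set in the controls, 208 CPM per kb of exon, followed by Mcm6 at 127 and Mcm5 at 123. Its level was 517, 449.8 and 529 CPM in the controls, against 515, 509, 601 and 444 CPM in the knockouts, with the highest and the lowest value both among the knockouts. Pcna had a log2 fold change of 0.053 (SE 0.11, 95% interval -0.20 to 0.31, edgeR adjusted p = 0.895).

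Tyms, the thymidylate synthase, was measured at 125, 115 and 117 CPM in the controls, against 123, 122, 145 and 117 CPM in the knockouts. Control 1 lay above 3 of the knockouts, and knockout 3 was the highest of all. This gave Tyms a log2 fold change of 0.092 (SE 0.086, 95% interval -0.10 to 0.29, edgeR adjusted p = 0.743). The ribonucleotide reductase subunits Rrm1 and Rrm2, which make deoxynucleotides, overlapped too. Rrm1 had 609.7 ± 61.9 CPM in controls against 643 ± 47 CPM in knockouts, and Rrm2 had 266 ± 24 CPM in controls against 287 ± 38 CPM in knockouts. For Rrm2 knockout 1 was highest at 340.5 CPM, while knockout 4 at 251 CPM lay below 2 of the controls. Slbp, which binds the stem-loop of replication-dependent histone mRNAs, was measured at 249, 196 and 243 CPM in the controls, against 264, 257, 270.3 and 219.5 CPM in the knockouts. Control 2 was the lowest of all, and the other controls fell between knockout 4 and knockout 2. For Slbp the log2 fold change was 0.14 (SE 0.11, 95% interval -0.11 to 0.39, edgeR adjusted p = 0.693). Ung, a uracil glycosylase that removes uracil from new DNA, was the least abundant per length at 6.92 CPM per kb and had a log2 fold change of 0.016.

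Ccne1 stood furthest from 0. It encodes cyclin E1, which with Cdk2 starts S phase, and it lies on chromosome 7 from 38097984 to 38107534 on the minus strand (GRCm38, GENCODE M21). Its level was 127, 89.4 and 111 CPM in the controls, against 171, 151, 154 and 131 CPM in the knockouts, so each knockout lay above each control. The gap between the groups was narrow, since control 1 and knockout 4 differed by less than the spread within either group. The fold was 1.39 (1.14 to 1.69, 95% interval). Ccne1 had a log2 fold change of 0.47 (SE 0.13, 95% interval 0.19 to 0.76, edgeR adjusted p = 0.178). The call at 0.05 depended on the method. DESeq2 on the same genes gave an adjusted p of 0.0447 and the authors' deposited table one of 0.0577, while limma-voom gave 0.181. Leaving out single libraries, the log2 fold change ran from 0.346 without control 2 to 0.598 without control 1, and edgeR's adjusted p from 0.140 to 0.480.

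Ccne2, the gene of cyclin E2, showed no such separation. Its level was 25.9, 24.1 and 27.7 CPM in the controls, against 31.5, 26.8, 22.1 and 24.5 CPM in the knockouts, with the highest and the lowest value both in knockouts. This gave Ccne2 a log2 fold change of 0.016 (SE 0.13, 95% interval -0.28 to 0.31, edgeR adjusted p = 0.977). Of its exonic bases, 17.4% are also covered by Ints8 on the opposite strand. The ratio of Ccne1 to Ccne2 CPM in a library does not depend on how libraries are scaled. It was 4.90, 3.72 and 4.02 in the controls, against 5.43, 5.62, 6.99 and 5.36 in the knockouts, without overlap. That ratio was looked at after both levels had been seen, and no test was made of it. Per length, Ccne1 exceeded Ccne2 in each library, by 4.88-fold to 6.44-fold in the controls, and by 7.04-fold to 9.18-fold in the knockouts.

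**Figure D2:**
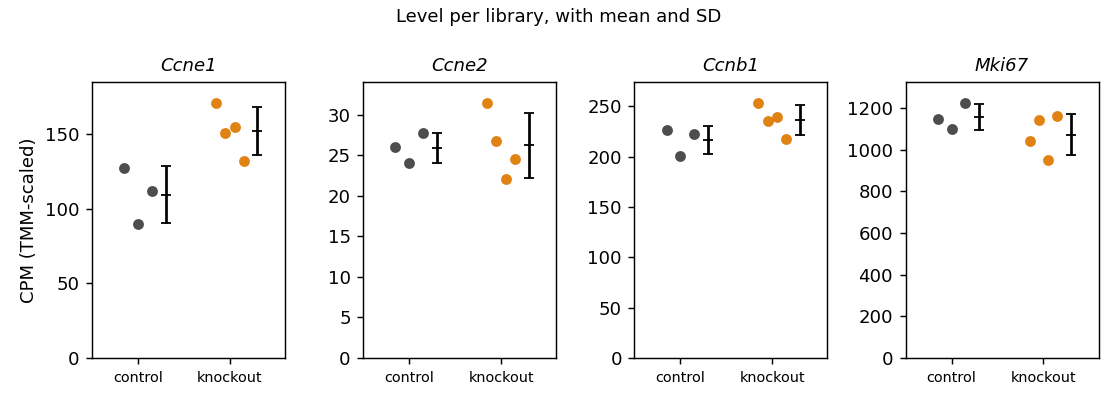
Level in each library (CPM, linear axis from 0) of the cyclin genes Ccne1, Ccne2 and Ccnb1 and of the proliferation gene Mki67. Points are libraries, bars at the side are mean and SD (3 controls, 4 knockouts). The groups separate for Ccne1 and overlap for the other 3 genes.

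Mitotic genes overlapped between the genotypes too. Ccnb1, cyclin B1, was measured at 227, 201 and 222 CPM in the controls, against 254, 235, 239 and 218 CPM in the knockouts. The lowest knockout lay below 2 of the 3 controls. For Ccnb1 the log2 fold change was 0.13 (SE 0.082, 95% interval -0.059 to 0.31, edgeR adjusted p = 0.636). Ccnb2, cyclin B2, was measured at 137, 131 and 151 CPM in the controls, against 131, 152, 162 and 136 CPM in the knockouts. Knockouts held both the highest values and values within the control range. Ccnb2 had a log2 fold change of 0.059 (SE 0.092, 95% interval -0.15 to 0.27, edgeR adjusted p = 0.851). Cdk1, the kinase they activate, had 135 ± 2.4 CPM in controls against 144 ± 17 CPM in knockouts, with knockout 3 highest. Ccna2, cyclin A2, which acts in S phase as well as in G2, had 293 ± 28 CPM in controls against 313 ± 28 CPM in knockouts.

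Kinases and the anaphase machinery overlapped between the groups as well. Plk1, a polo-like kinase of mitotic entry and spindle assembly, was measured at 165, 153 and 164 CPM in the controls, against 186, 164, 178 and 161 CPM in the knockouts. Knockout 2 and knockout 4 lay within the control range and the other knockouts above it. This gave Plk1 a log2 fold change of 0.10 (SE 0.077, 95% interval -0.071 to 0.27, edgeR adjusted p = 0.683). Cdc20, the activator of the anaphase-promoting complex, was measured at 219, 199.5 and 215 CPM in the controls, against 235, 211, 237 and 209 CPM in the knockouts, again with knockout 1 and knockout 3 above the controls. For Cdc20 the log2 fold change was 0.082 (SE 0.081, 95% interval -0.099 to 0.26, edgeR adjusted p = 0.753). Ube2c, the ubiquitin-conjugating enzyme of the same complex, had a log2 fold change of 0.017. Aurka and Aurkb, the Aurora kinases of the spindle poles and of the centromere, had 0.037 and -0.018. The checkpoint kinase gene Bub1 had 0.040.

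Birc5, or survivin, which works with Aurora B in the chromosomal passenger complex, was measured at 129, 119.9 and 132 CPM in the controls, against 137, 133, 154 and 122 CPM in the knockouts. Knockout 3 was the highest, and knockout 4 lay below 2 controls. Birc5 had a log2 fold change of 0.11 (SE 0.087, 95% interval -0.091 to 0.30, edgeR adjusted p = 0.709). Cenpa, the histone H3 variant of the centromere, had 136 ± 8.6 CPM in controls against 139.8 ± 11.6 CPM in knockouts. For the spindle genes Tpx2, Hmmr and Nusap1 the log2 fold changes were 0.0016, -0.019 and -0.10. Tpx2 was the steadiest of the 41 genes, with a highest library only 1.05-fold above its lowest. Kif20a, a kinesin of the midzone, had -0.061, and 29.3% of its exonic bases are also covered by Cdc23 on the opposite strand.

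Mki67, the antigen Ki-67 used to score dividing cells, had the highest level per length of the M phase set, 115 CPM per kb, followed by Cdc20 at 113 and Ccnb2 at 91.1. Its level was 1146, 1099 and 1225 CPM in the controls, against 1041, 1141, 949 and 1159 CPM in the knockouts. Knockout 1 and knockout 3 lay below all controls, while the others lay within their range. This gave Mki67 a log2 fold change of -0.11 (SE 0.098, 95% interval -0.33 to 0.11, edgeR adjusted p = 0.727). Kif11, the kinesin that pushes spindle poles apart, was measured at 244, 233 and 245 CPM in the controls, against 214, 235, 230.0 and 227 CPM in the knockouts, with 3 of 4 knockouts below the lowest control. For Kif11 the log2 fold change was -0.085 (SE 0.07, 95% interval -0.24 to 0.073, edgeR adjusted p = 0.707). Cenpf, a large kinetochore protein, was measured at 119.8, 138 and 126 CPM in the controls, against 105, 119, 93.8 and 136 CPM in the knockouts. The knockouts held the lowest values and also one close to the highest control. Cenpf had a log2 fold change of -0.18 (SE 0.12, 95% interval -0.45 to 0.096, edgeR adjusted p = 0.651). Top2a, the topoisomerase that untangles sister chromatids, had 807 ± 24 CPM in controls against 772 ± 29 CPM in knockouts.

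**Figure D3:**
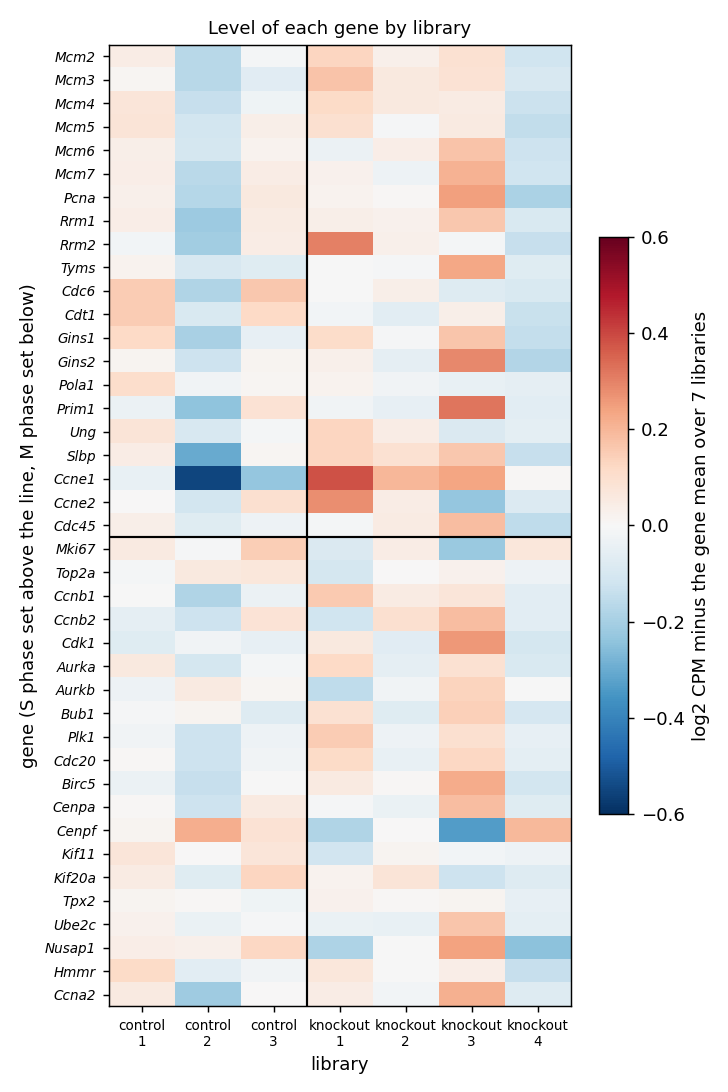
Level of each of the 41 genes (rows) in each of the 7 libraries (columns), as log2 CPM minus the mean of that gene over the 7 libraries. Control 2 is below the mean in every S phase row and knockout 4 in all but Ccne1, knockout 3 is red in most rows of both sets, and Mki67 and Cenpf are its lowest rows in the M phase set.

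The comparison of the 2 sets library by library was made on the mean deviation of the members, which is log2 CPM minus the mean of the gene over the 7 libraries. For the S phase set it was 0.046, -0.17 and 0.012 in the controls, against 0.090, 0.023, 0.11 and -0.11 in the knockouts. Control 2 and knockout 4 were low and the groups overlapped. For the M phase set it was 0.014, -0.048 and 0.025 in the controls, against -0.0039, -0.0048, 0.076 and -0.058 in the knockouts. The same 2 libraries were lowest, and the span over the 7 libraries was 0.13 against 0.27 for the S phase set.

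The difference between genotypes was smaller than the pooled SD of single libraries for each set. That SD is not the standard error of a difference of means, and no test was made. The S phase set averaged -0.036 ± 0.115 in the controls (SD, n = 3), against 0.027 ± 0.099 in the knockouts (SD, n = 4), a difference of 0.064 with a pooled SD of 0.105. The M phase set averaged -0.0031 ± 0.0392 and 0.0023 ± 0.0551, a difference of 0.0054 with a pooled SD of 0.049. The S phase set minus the M phase set was 0.032, -0.12 and -0.013 in the controls, against 0.094, 0.027, 0.031 and -0.052 in the knockouts. Its group means differed by 0.058, less than the pooled SD of 0.068. The median log2 fold change was 0.054 for the S phase set, 0.027 for the M phase set and 0.011 for all tested genes. The values depended on single libraries. Without control 2 the S phase median was -0.0020, the M phase median 0.0012 and the difference of the S minus M scores 0.015. Without knockout 3 the medians were 0.021 and -0.011. Other omissions enlarged the values. Without knockout 4 the S phase median was 0.117, the M phase median 0.055 and the difference of the S minus M scores 0.0843. Without control 1 these were 0.0881, 0.044 and 0.0912, and the difference of the S phase scores was 0.105, against 0.110 without knockout 4 and -0.0016 without control 2.

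**Figure D4:**
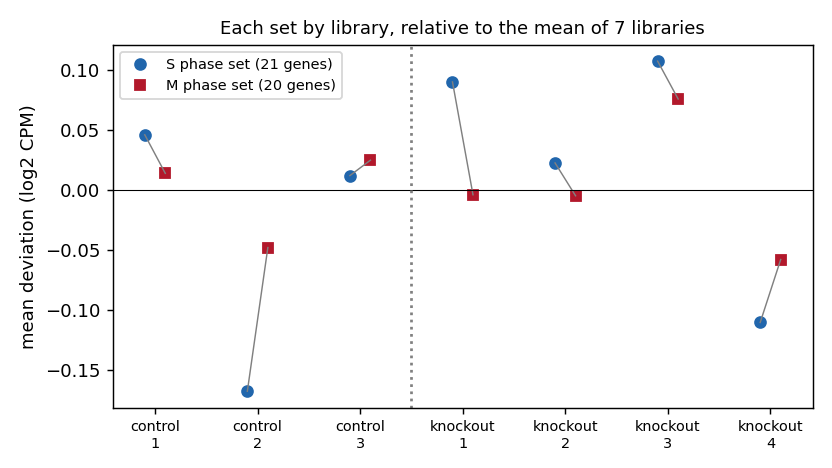
Mean deviation of the S phase set (circles) and the M phase set (squares) in each library, in log2 CPM relative to the mean over the 7 libraries. The 2 sets of a library are joined by a line. Control 2 (-0.17) and knockout 4 (-0.11) are lowest for the S phase set, and the 2 groups overlap for both sets.

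S phase genes deviated together in certain libraries. Control 2 held the lowest value for 13 of the 21 S phase genes and knockout 4 for 7. The highest value was in knockout 3 for 10 and in knockout 1 for 8. In control 2 all 21 S phase genes lay below their own mean, and in knockout 4 all but Ccne1 did. Among the 20 M phase genes, 8 were lowest in control 2, 6 in knockout 4 and 10 highest in knockout 3. Erythroid markers had the same lowest and highest libraries as the S phase set, while the libraries between them did not keep its order. Their summed level over 13 genes was 2991 CPM in control 2, the lowest, 4143 CPM in knockout 4, the next, and 5313 CPM in knockout 3, the highest. The other 4 libraries held 4616 to 4718 CPM. Neutrophil markers were highest in control 2, at 8662 CPM, but among the knockouts they were highest in knockout 3 (3632 CPM) and stood at 2003 CPM in knockout 4. Hepatocyte markers were also lowest in control 2 (10082 CPM) but highest in knockout 4 (22766 CPM). Stem and progenitor markers were highest in control 2 (1249 CPM) and lowest in knockout 1 (711 CPM). Endothelial and stromal markers were highest in control 2 (189 CPM), and macrophage markers in control 1 (308 CPM). The part of any of these cell types in the result was not tested.

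Knockout 3 was high for short transcripts and low for long ones over the whole table. The median deviation of the tested genes was 0.13 in the tertile of genes with the shortest exonic length (under 3130 bases) and -0.14 in the tertile with the longest (over 5691 bases). That difference, 0.27, was the largest of the 7 libraries. The next in size were -0.13 in control 2 and -0.082 in knockout 4, of the opposite sign. Members had the same extremes, 0.087 in knockout 3 and -0.066 in control 2. In knockout 3 the 9 M phase genes shorter than the median member (4097 bases) averaged 0.16 and the 11 longer ones 0.0042. Cenpf, with 15433 exonic bases the longest member, and Mki67, with 10061, were lowest in knockout 3. Length did not sort every gene, since Cdk1, Bub1 and Cenpa, with 4934, 4354 and 5860 exonic bases also among the longer members, were highest there. Over all libraries the short M phase genes had a median log2 fold change of 0.059 and the long ones of -0.019, and the S phase genes 0.054 and 0.051. These splits were chosen after the data were seen, and the part of transcript length in the differences between libraries was not tested.

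**Figure D5:**
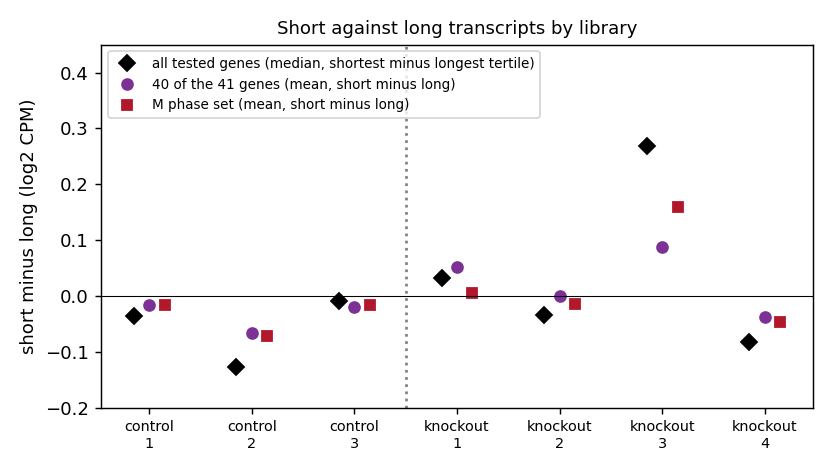
Short minus long transcripts in each library, in log2 CPM deviation, for all tested genes (median of the shortest minus that of the longest tertile), for 40 of the 41 genes split at the median length, and for the M phase set. Knockout 3 is highest for all 3 measures, with 0.27 over all tested genes, and control 2 is lowest for all 3.

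Further genes of the same pathways, from lists also chosen with earlier results of these data known, gave few differences at an unadjusted p and no call. Of 44 other replication genes, 0 were called by edgeR or DESeq2, and 3 were higher and 0 lower at an unadjusted p under 0.05 (3.95% and 6.90% of all tested genes, with 0.559% called by edgeR and 2.68% by DESeq2; the same shares apply to the lists that follow). The groups did not overlap for 2 of the 44, beside 11.2% of tested genes. Their median log2 fold change was 0.036. Pold2, the accessory subunit of polymerase delta, had 80.8 ± 3.4 CPM in controls against 101 ± 8.6 CPM in knockouts (log2 fold change 0.32, SE 0.08, edgeR adjusted p = 0.169), without overlap. Rfc5, a clamp loader subunit, had 0.23 (edgeR adjusted p = 0.405) and Tipin, a fork protection factor, 0.24 (edgeR adjusted p = 0.445). Of 58 other mitosis genes, 0 were called by edgeR or DESeq2, and 1 was higher and 2 lower at an unadjusted p under 0.05 (beside 3.95% and 6.90%), with a median of 0.0054. The groups did not overlap for 7 of the 58, beside 11.2%. The genes that passed unadjusted were Cdc25b, a phosphatase that activates Cdk1, at 0.30, Anln, or anillin, of the cytokinetic ring, at -0.24, and Cdca2 at -0.19, with edgeR adjusted p of 0.413, 0.354 and 0.428.

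The transcription factors that drive these genes were measured too. Of 22 members of the E2F family, the DREAM and MuvB complexes, B-Myb, FoxM1 and NF-Y, 0 were called by edgeR or DESeq2, and 2 were higher and 0 lower at an unadjusted p under 0.05 (beside 3.95% and 6.90%), with a median of 0.016. The groups did not overlap for 3 of the 22, beside 11.2%. E2f2, an activator E2F, had 66.9 ± 9.1 CPM in controls against 81.8 ± 6.2 CPM in knockouts (log2 fold change 0.29, SE 0.11, edgeR adjusted p = 0.356). Nfyc, a subunit of NF-Y, had 64.1 ± 3.4 CPM in controls against 74.3 ± 6.3 CPM in knockouts (0.21, SE 0.09, edgeR adjusted p = 0.418). E2f8, an atypical repressor, came next by p with 0.14 (edgeR adjusted p = 0.496). Of 16 genes of the DNA damage checkpoint and fork repair, 0 were called by edgeR or DESeq2 and 0 passed unadjusted (beside 10.9%), with a median of -0.044, and 0 had groups without overlap. In each of these 4 lists every member's 95% interval lay inside 1.5-fold in either direction, beside 57.2% of tested genes, a share not matched on level.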

How the data were processed

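Polyadenylated RNA of lineage-negative fetal liver cells was sequenced from TruSeq Stranded mRNA libraries. The deposited table holds raw counts per gene symbol. Per the submitters' processing notes, the authors used HISAT2, featureCounts and DESeq2 with mm10. How these were set, which annotation and strand setting they used and what became of multi-mapping reads was not given in the sources used here. The authors' deposited comparison holds log2 fold changes, p-values, the score of each test and, as signal, counts scaled by library size factors.

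Genes were kept with filterByExpr, scaled by TMM and tested with edgeR 4.0.16 (quasi-likelihood F test, R 4.3.3) on all 7 libraries with group as the only term. P-values were adjusted by Benjamini-Hochberg over all 14679 genes, with a threshold of 0.05. CPM used TMM-scaled totals and log2 CPM a prior count of 2. Intervals are 95%. Exonic lengths are unions of GENCODE M21 exons (GRCm38, the assembly of mm10), whichever isoform is expressed, and the authors' annotation may differ. Library pairs of a group differed by far more than sampling noise (chi-square per degree of freedom 8.5 to 42). The script was tested on simulated data, with changes placed in genes drawn from the 14679 tested genes. It recovered 0% of 1.25-fold, 21.7% of 1.5-fold, 58.3% of 2-fold and 91.8% of 4-fold changes. These shares are over the changed genes that passed the filter again in the simulated counts, and 6 unchanged genes were called. DESeq2 1.42.0 and limma-voom (limma 3.58.1) were alternatives, beside scaling, filter, block, set membership and leaving out each library.

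The members and lists were chosen with earlier results of these data known. All 41 members could be named. Every library's value is given for the 6 members of each set with the smallest p and the 3 with the highest level per length, and for Ccne2, chosen after its values were seen. In 3 cases (Knl1, Sgo1, Sgo2a) a list gene was found under an older symbol, and 1 marker, Ahsp, was not matched.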

Additional observations from a re-analysis of the deposited data

Results flagged for a closer look

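Within the 4 knockout libraries, 41 genes, the 3 set scores and Brd9 were screened for a library far from the others by Dixon's test, and 2 of 45 stood out, where chance gives about 1 in 20. For Prim1 the gap between knockout 3 (117 CPM) and the next knockout made up 0.908 of the range, above the critical value of 0.829. For Ube2c that share was 0.937, with 167 CPM in knockout 3 against 143 to 144 CPM in the others. Knockout 3 is also the library with the largest difference between short and long transcripts. Prim1 has 3868 and Ube2c 2600 exonic bases, and the part of transcript length in these 2 values was not tested.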

How the results depend on the processing

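The number of genes called over the whole table, 82, was 228 with no filter on low counts and 393 with DESeq2, and between 20 (without control 3) and 120 (without knockout 3) when single libraries were left out. It fell outside 1.5 times the reported value also without control 2 (49) and without knockout 1 (51), 2 (21) or 4 (37). The count of S phase members called was 1 with DESeq2 and 1 with the replicate block, in both cases Ccne1 (adjusted p = 0.0447 and 0.0466; log2 fold change 0.475 and 0.549), and 0 under the other alternatives run. That of M phase members was 0 under every alternative run. The labels do not say whether control and knockout libraries of the same replicate number belong together. Deviations from the group mean correlated by 0.17, -0.022 and -0.0052 between libraries of the same number. The 0.17 of control 1 with knockout 1 was the highest of any pair, while control 2 and control 3 correlated better with another number (0.13 and 0.075). The numbers were not taken as pairs, but these values cannot decide whether such libraries share a litter or batch. With the number as a block, 121 genes were called over the whole table.

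Signs near 0 were not stable. Mcm5, at -0.00079, was 0.00054 with DESeq2 size factors in edgeR and with DESeq2, 0.0467 with the replicate block, and -0.0543 to 0.0452 without single libraries. Mcm6 ran from -0.0225 to 0.0778 and Pcna from -0.0277 to 0.119 without single libraries. Medians of both sets and their difference moved by less than 1 pooled SD of the library scores under every alternative run. That SD was 0.105, 0.049 and 0.068, larger than the values themselves (0.054, 0.027 and 0.027), so a value can change sign within it. The S phase median and the S minus M difference of medians changed sign without control 2 (-0.0020 and -0.0033). So did the M phase median without knockout 3 (-0.011) or with long members only (-0.019), and the difference with short members only (-0.0047). Another alternative left out genes also high in another phase (Ccne1, Ccne2, Slbp, Ung, Mki67, Top2a and Ccna2). The difference of the S phase scores was then 0.041, against 0.064 with all members. That of the S minus M scores was 0.030, against 0.058. Scaling moved the median of all genes by less than 0.1. The lowest value of any member in any library was 22.1 CPM (Ccne2, knockout 3), at library totals of at least 18748885 counts.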
